A study of Mus musculus with 8 samples.

Results

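The replication-dependent histone genes of the mouse were followed in retinal RNA-seq libraries of 2 groups. They were taken as all protein-coding rows whose symbol begins with Hist1h, Hist2h, Hist3h or Hist4h, which gave 67 of the 54532 genes in the deposited tables. Of these, 61 encode core histones (18 H2A, 18 H2B, 12 H3 and 13 H4 genes) and 6 encode linker histones of the H1 type. Another 3 rows with such symbols are annotated as pseudogenes and were not included.

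The retinas came from rd10 mice in both groups. This strain carries a mutation of Pde6b, the gene of a rod phosphodiesterase subunit, and loses its rods and then its cones. The sIVs group held 4 libraries, numbered 2 to 5 by their titles, and the PBS group, named as the control, held 4 libraries numbered 1 to 4. By the series title sIVs are small intracellular vesicles, and PBS is read here as phosphate-buffered saline. Where the vesicles came from, how and at what dose they were given, and the age and sex of the mice and the sampling time are not stated in the sources used here. The libraries are numbered as biosamples, but it is not stated that each is a separate animal, so p-values here reflect only library-to-library spread, which may be partly technical. Libraries were made from whole retina after poly(A) selection, so fewer cells of a type and less RNA per cell cannot be told apart.

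Core histones H2A, H2B, H3 and H4 form the protein spool of the nucleosome, and linker histone H1 binds the DNA where it enters and leaves that spool. Most of their genes lie in clusters, lack introns, and are transcribed mainly in S phase. Their typical messenger RNA ends in a short stem-loop bound by SLBP in place of a poly(A) tail. In human cells some of the same genes are also known to give longer, polyadenylated transcripts, including in cells that have left the cell cycle. Mature retinal neurons do not divide, and poly(A) selection retains transcripts with a tail.

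The stem-loop is shown because it marks where the short, tailless transcript is cut just downstream, and because many of the annotated gene models run beyond it. The letters below are the sense strand of GENCODE M21 transcripts on GRCm38, 5′ to 3′, with the 16-base stem-loop in capitals. They are from the most abundant or most discussed genes whose model contains one.
Hist1h1c, chr13:23739505-23739534, plus strand: tccaaaaGGCTCTTTTCAGAGCCaccactc
Hist3h2a, chr11:58955165-58955194, plus strand: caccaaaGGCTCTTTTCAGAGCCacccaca
Hist3h2ba, chr11:58949342-58949371, plus strand: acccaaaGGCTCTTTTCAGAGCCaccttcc
Hist1h2be, chr13:23585524-23585553, minus strand: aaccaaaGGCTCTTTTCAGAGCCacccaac
Hist2h3c2, chr3:96238478-96238507, minus strand: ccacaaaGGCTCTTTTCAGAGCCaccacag
Hist1h4i, chr13:22040959-22040988, minus strand: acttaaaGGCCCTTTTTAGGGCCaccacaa
Hist1h4h, chr13:23531451-23531480, plus strand: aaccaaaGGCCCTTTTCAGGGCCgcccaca
The first 5 share every letter of the stem-loop, and the pair of H4 genes differ from them in the stem and from each other in the loop.

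A stem-loop, searched as a 16-base run beginning with GG, with a 6-base stem and a 4-base loop that begins with T, was found after the coding part of 46 of the 67 models. It had 8 distinct spellings, of which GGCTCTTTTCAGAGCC occurred in 26 genes. It began 25 to 62 bases after the last coding base, with a median of 35. Of the 46 models, 23 extended over 100 bases past the stem-loop, and these genes held 58.6% of all histone gene counts, with a median of 0.937 FPKM (reads scaled to gene length and library total, averaged over the 8 libraries). The other 23 ended within 100 bases of it and held 1.40% of the counts, with a median of 0.173 FPKM. Another 4 models held no stem-loop but had the poly(A) signal AATAAA after the coding part. This class held 38.4% of the counts, nearly all from Hist1h2bc and Hist2h2be. The last 17 models had neither and held 1.61% of the counts. Most of these 17 end only 3 to 5 bases after the last coding base, too early to include a stem-loop. Its absence from such a model therefore does not show that the gene lacks it. These are properties of the annotation, and the ends of the transcripts in these retinas were not measured. Reads that match several genes may be uncounted, and sharing of 150-base stretches with other genes varied in both stem-loop classes. In the shorter models it ran from 0% in Hist2h2ac to 100% in Hist2h2aa2. In the longer ones it ran from 0% in Hist3h2ba, the highest in FPKM, to 100% in Hist2h3c1. The part of shared sequence in the class values was not tested.

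**Figure D1:**
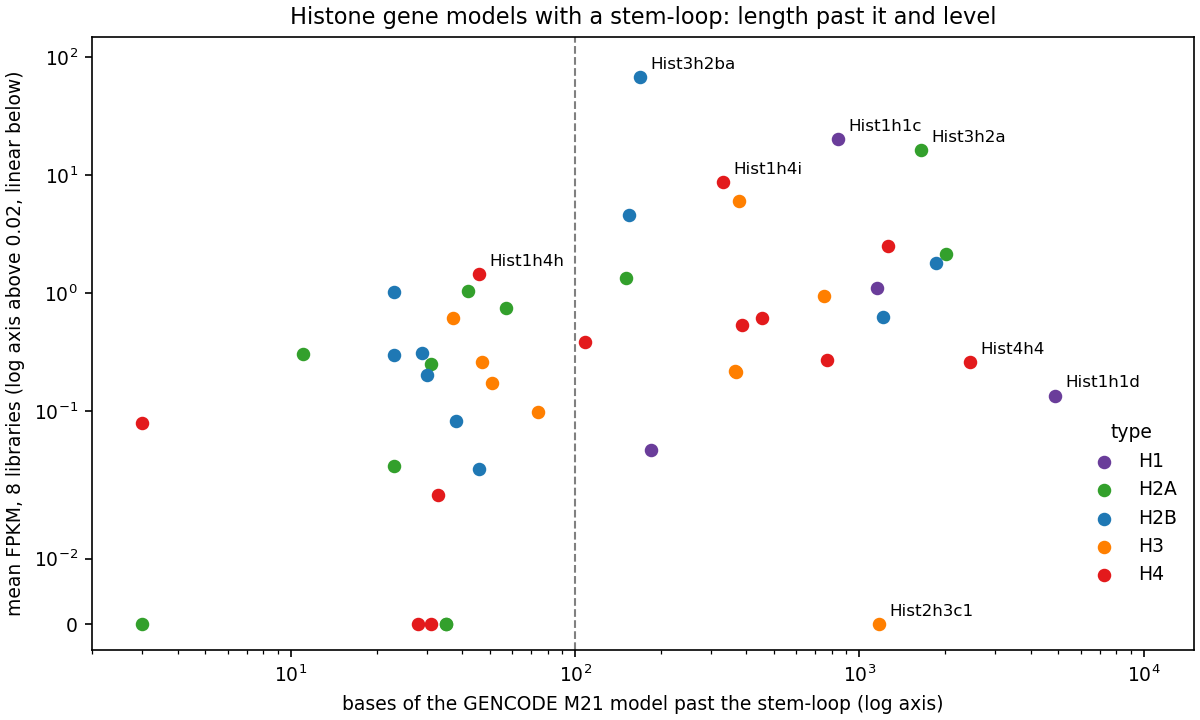
Mean FPKM over the 8 libraries (log axis above 0.02, linear below) against the number of bases by which the GENCODE M21 model extends past its stem-loop (log axis), 1 point for each of the 46 histone genes with a stem-loop, coloured by type. The dashed line is at 100 bases: Hist1h4h, at 1.45 FPKM, is the highest gene left of it, and Hist3h2ba, at 68.0 FPKM, the highest gene right of it.

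Hist1h2bc, which encodes an H2B and had the most counts of all, is modelled with 2 exons on chr13:23684199-23692908 (plus strand), and its intron begins 12 bases after the last coding base. It forms a divergent pair with Hist1h2ac, an H2A gene on chr13:23681467-23683948 (minus strand), and the gap between their starts is 250 bases. The promoter window that RefSeq gives for Hist1h2ac on GRCm38.p6 spans this gap, chr13:23683910-23684209, and is printed on the minus strand, the direction of Hist1h2ac. Capitals mark the CCAAT box, the TATA box as TATAAA, and the octamer spelled ATTTGCAT. Each was searched on both strands, so ATTGG is the CCAAT box, and ATGCAAAT the octamer, on the other strand.
Hist1h2ac promoter: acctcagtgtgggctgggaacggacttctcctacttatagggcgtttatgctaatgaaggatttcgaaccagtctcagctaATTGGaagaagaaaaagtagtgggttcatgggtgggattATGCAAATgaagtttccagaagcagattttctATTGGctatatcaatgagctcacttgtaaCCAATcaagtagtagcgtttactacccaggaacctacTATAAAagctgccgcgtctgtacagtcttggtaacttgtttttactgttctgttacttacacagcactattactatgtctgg
The window holds CCAAT 3 times, TATAAA once and the octamer once. Windows were available for 62 of the 67 genes, 63 windows in all, since Hist1h2be has 2. CCAAT occurred in 54 of these, against 37.4% of the 32851 promoters in the RefSeq table, and it was present in every H1, H2A, H2B and H3 window but in only 3 of the 12 H4 windows. TATAAA occurred in 35 of the 63 windows, against 13.6% of all promoters. The octamer occurred in 14, against 1.74% of all promoters: 7 of 18 H2A windows, 7 of 17 H2B windows and none of the H1, H3 and H4 windows. The windows of divergent partners can cover the same bases, as those of Hist1h2ae and Hist1h2bg do, so a site can be counted in both. A match describes the letters and does not show that a factor binds there. The genes form 12 divergent H2A and H2B pairs with gaps of 175 to 305 bases, and the H2B gene had the higher FPKM in 8 of them. In only 2 of the 12 pairs did both genes have enough counts to be tested. Some pairs were decided by a few counts, as in a pair with 0 counts in the H2A gene and 3 in the H2B gene over the 8 libraries. In the pair above, Hist1h2bc had 66.2 FPKM and Hist1h2ac 2.14 FPKM.

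Library totals ran from 15039385 to 16989737 counts in the sIVs libraries and from 14640235 to 15948291 in the PBS libraries. Libraries 3 and 4 of the sIVs group stood apart from the other 6. The 12 rod markers summed to 9549 and 9045 CPM (counts scaled to library size, here adjusted by TMM, the trimmed mean of M values) in sIVs libraries 3 and 4, against 41125 and 33352 CPM in sIVs libraries 2 and 5 and 36272 to 43141 CPM in the PBS libraries. The 14 microglia and macrophage markers summed to 517 and 637 CPM in sIVs libraries 3 and 4, against 238 and 189 CPM in sIVs libraries 2 and 5 and 180 to 306 CPM in the PBS libraries. Of the 14 microglia and macrophage markers 13 had a positive log2 fold change of sIVs over PBS, against 49% of all genes. The other 1 had a negative one (-0.64), against 51% of all genes, and its sIVs libraries all lay below the PBS libraries. All rod and microglia markers were detected in every library. Their part in the histone values was not tested, so for tested histone genes the log2 fold change without sIVs libraries 3 and 4 is given beside the value with all libraries wherever the sign differs or the values differ by over 1.5 times.

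Histone transcripts in these libraries came from few genes. The 67 genes drew 32048 counts over the 8 libraries, and the 5 with most counts (Hist1h2bc, Hist3h2ba, Hist3h2a, Hist1h1c and Hist2h2be) held 80.6% of them. H2B genes held 59.9%, H2A genes 16.6%, H1 genes 13.8%, H4 genes 6.36% and H3 genes 3.31%. Of the 67 genes, 11 had no count in any library, 15 had 1 to 9 counts in all, and 41 had 10 or more. The filter on low counts kept 20 genes (4 H1, 3 H2A, 6 H2B, 2 H3 and 5 H4), which held 97.7% of the counts.

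No histone gene differed between sIVs and PBS retinas at an adjusted p under 0.05 in edgeR's quasi-likelihood test, and neither did any other gene (0% of 17725 called in either direction). At an unadjusted p under 0.05, 1 of the 20 tested histone genes was higher in sIVs (Hist1h4h), where 9.61% of all genes were, and 3 were lower (Hist1h2bc, Hist1h2be and Hist2h3c2), where 5.63% of all genes were. In none of the 20 did the 4 sIVs libraries lie all above or all below the 4 PBS libraries, a separation seen upwards in 4.42% and downwards in 3.36% of all genes. DESeq2 and limma-voom also called none of the 20, though DESeq2 gave no adjusted p for 5 of them, and at an unadjusted p under 0.05 they had 1 higher and 3 lower in DESeq2 and 1 higher and 4 lower in limma-voom. Over all genes limma-voom called 0, and DESeq2 called 465 genes higher and 106 lower in sIVs (2.62% and 0.598% of those tested). The log2 fold change of sIVs over PBS was negative in 16 of the 20, against 51% of all genes, and positive in 4, against 49% of all genes, with a median of -0.19 over the 20 and -0.0051 over all genes. The median was -0.17 over the 16 core genes and -0.33 over the 4 linker genes. Without sIVs libraries 3 and 4 these medians were -0.27 over the 18 core genes then tested and -0.038 over the 4 linker genes, and edgeR called none of the 22 histone genes then tested, and 0.011% of all genes higher and 0.00548% lower.

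**Figure D2:**
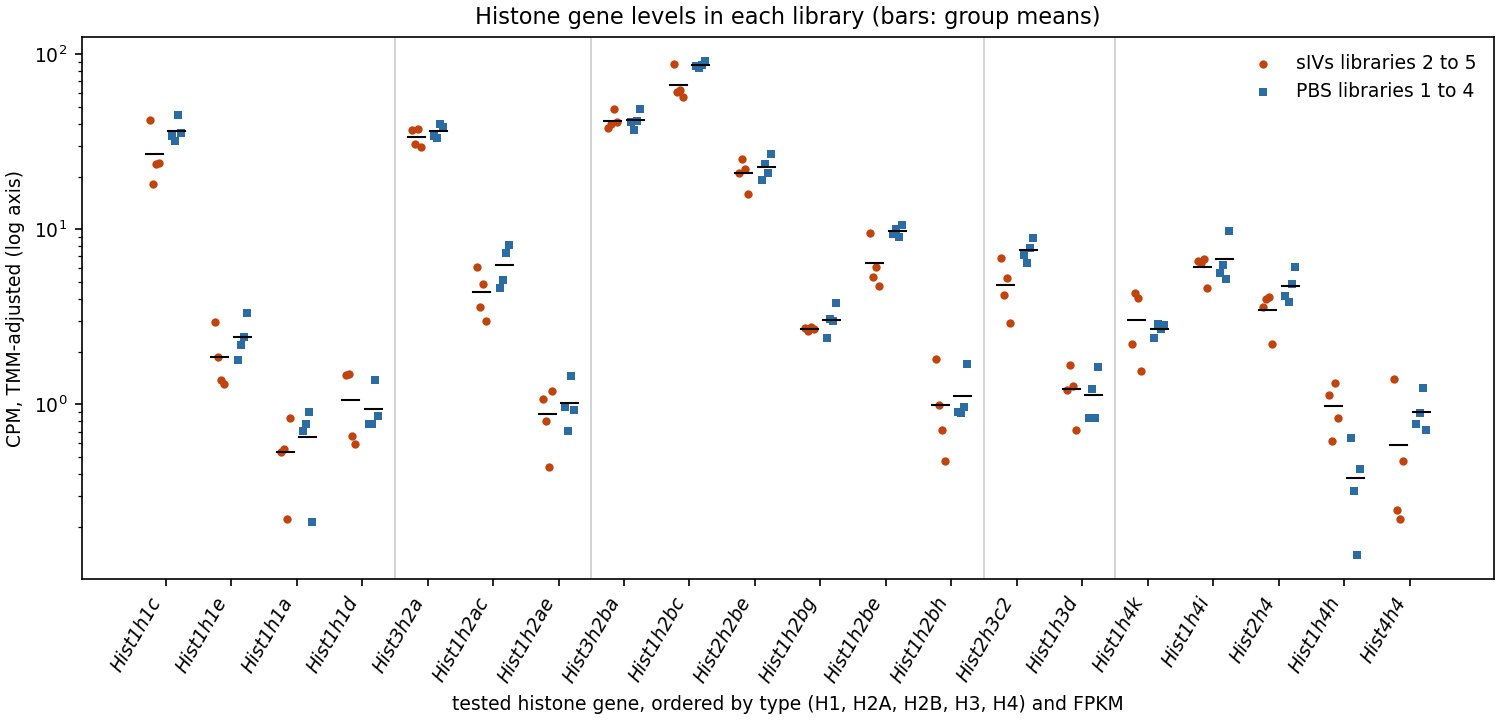
CPM (log axis) of the 20 tested histone genes in each sIVs library (circles) and each PBS library (squares), with horizontal bars at group means; vertical lines separate H1, H2A, H2B, H3 and H4. The groups overlap in every gene, and Hist1h2bc shows 1 sIVs library at 87.8 CPM with the other 3 between 57.2 and 62.3 CPM, below all PBS libraries.

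Among the linker histones, Hist1h1c was by far the most abundant, at 20.3 FPKM, and the next, Hist1h1e, was at 1.11 FPKM. Hist1h1c had 42.1, 18.1, 23.6 and 23.9 CPM in sIVs libraries 2 to 5, against 34.1, 32.1, 44.7 and 35.6 CPM in PBS libraries 1 to 4. Libraries 3, 4 and 5 of the sIVs group were below every PBS library, while sIVs library 2 was the second highest of the 8. The log2 fold change was -0.44 ± 0.23 (SE, n = 4 each), with an edgeR adjusted p of 0.393. Leaving out sIVs libraries 3 and 4 brought it to -0.15, and leaving out sIVs library 2 brought it to -0.74.

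Hist1h1e had 2.95, 1.86, 1.38 and 1.31 CPM in the sIVs libraries, against 1.80, 2.18, 2.43 and 3.34 CPM in the PBS libraries. The groups overlapped, with sIVs libraries 4 and 5 the lowest and PBS library 4 the highest, and the log2 fold change was -0.38 ± 0.31 (edgeR adjusted p = 0.584). It was -0.68 without sIVs library 2, -0.25 without sIVs library 5, -0.20 without PBS library 4, and -0.21 without sIVs libraries 3 and 4. Its annotated transcript overlaps that of Hist1h2be on the same strand and shares 19.5% of its 150-base stretches with other genes, so its count depends on how such reads were assigned. Hist1h1a had 4 to 14 counts in sIVs libraries and 3 to 13 in PBS libraries (log2 fold change -0.28, edgeR adjusted p = 0.808, or 0.079 without sIVs libraries 3 and 4). Hist1h1d had 10 to 24 counts in sIVs libraries and 12 to 20 in PBS libraries (log2 fold change 0.15, edgeR adjusted p = 0.886). The remaining linker genes were not tested. Hist1h1b had 0 to 5 counts in sIVs libraries and 1 to 3 in PBS libraries, and Hist1h1t, a testis form, had 0 in every sIVs library and 0 to 3 in PBS libraries.

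Hist3h2a was the main H2A gene, at 16.3 FPKM. It had 37.1, 30.5, 37.6 and 29.4 CPM in sIVs libraries 2 to 5, against 34.0, 33.3, 39.8 and 38.6 CPM in PBS libraries 1 to 4. The groups interleaved, with sIVs libraries 3 and 5 lowest, and the log2 fold change was -0.11 ± 0.11 (edgeR adjusted p = 0.641). Its transcript overlaps Trim17 on the same strand, and 28.0% of its 150-base stretches also occur there.

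Hist1h2ac, the divergent partner of Hist1h2bc, had 6.09, 3.60, 4.86 and 2.98 CPM in the sIVs libraries, against 4.64, 5.13, 7.29 and 8.11 CPM in the PBS libraries. The sIVs libraries 3 and 5 were below every PBS library, and PBS libraries 3 and 4 above every sIVs library. Its log2 fold change was -0.52 ± 0.26 (edgeR adjusted p = 0.385). Hist1h2ae had 8 to 20 counts in sIVs libraries and 11 to 21 in PBS libraries, with a log2 fold change of -0.21 ± 0.36 (edgeR adjusted p = 0.811) that was 0.16 without sIVs libraries 3 and 4.

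The H2B genes supplied most histone transcripts, chiefly from Hist3h2ba and Hist1h2bc. Hist3h2ba averaged 67.9 ± 7.49 FPKM in sIVs and 68.2 ± 7.73 FPKM in PBS, and Hist1h2bc averaged 57.8 ± 12.3 FPKM in sIVs and 74.6 ± 2.44 FPKM in PBS (SD, n = 4 each). Whether the fold changes of these genes differ from each other was not tested.

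Hist1h2bc had 87.8, 60.6, 62.3 and 57.2 CPM in sIVs libraries 2 to 5, against 85.4, 83.7, 86.2 and 90.9 CPM in PBS libraries 1 to 4. The 4 PBS libraries lay close together, and 3 sIVs libraries were below all of them while sIVs library 2 lay within their range. Its log2 fold change was -0.37 ± 0.13, a ratio of 0.773, with an unadjusted p of 0.0151 and an adjusted p of 0.241 in edgeR. Without sIVs libraries 3 and 4 it was -0.26. Of its 150-base stretches 17.4% occur in transcripts of other H2B genes.

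Hist3h2ba had 38.0, 39.8, 48.6 and 40.7 CPM in the sIVs libraries, against 40.9, 36.8, 41.7 and 48.6 CPM in the PBS libraries. The groups covered the same range, and the log2 fold change was -0.0067 ± 0.11 (edgeR adjusted p = 0.985), a value whose sign changed with the library left out and that was -0.093 without sIVs libraries 3 and 4. None of its 150-base stretches occurs in another gene. Hist2h2be, at 8.31 FPKM, had 20.9, 25.2, 22.1 and 15.9 CPM in the sIVs libraries, against 19.1, 23.7, 21.1 and 26.8 CPM in the PBS libraries. Again the groups overlapped, with sIVs library 5 lowest and PBS library 4 highest (log2 fold change -0.11 ± 0.15, edgeR adjusted p = 0.763, or -0.31 without sIVs libraries 3 and 4).

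Hist1h2be had 9.51, 5.34, 6.13 and 4.77 CPM in sIVs libraries 2 to 5, against 9.46, 10.0, 9.02 and 10.5 CPM in PBS libraries 1 to 4. As for Hist1h2bc, 3 sIVs libraries were below every PBS library and sIVs library 2 lay within the PBS range. The log2 fold change was -0.60 ± 0.21, a ratio of 0.659, with an unadjusted p of 0.0161 and an adjusted p of 0.244 in edgeR. It shares 9.4% of its 150-base stretches with other genes, Hist1h2bc and Hist1h1e among them, so these counts are not fully separate. Hist1h2bg, the partner of Hist1h2ae in the other tested divergent pair, had 2.61 to 2.76 CPM in sIVs libraries and 2.38 to 3.77 CPM in PBS libraries (log2 fold change -0.18 ± 0.19, edgeR adjusted p = 0.684). Hist1h2bh, the last tested H2B gene, had 8 to 27 counts in sIVs libraries and 14 to 24 in PBS libraries. Its log2 fold change was -0.17, or 0.010 without sIVs libraries 3 and 4 (edgeR adjusted p = 0.875 and 0.995).

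Only 2 of the 12 H3 genes passed the filter. Hist2h3c2, at 6.07 FPKM, had 6.90, 4.22, 5.30 and 2.92 CPM in sIVs libraries 2 to 5, against 7.15, 6.41, 7.84 and 8.89 CPM in PBS libraries 1 to 4. Once more sIVs library 2 lay within the PBS range and the other 3 sIVs libraries lay below it. The log2 fold change was -0.65 ± 0.24, a ratio of 0.638, with an unadjusted p of 0.0245 and an adjusted p of 0.271 in edgeR. Its count is uncertain, since 59.4% of its 150-base stretches also occur in Hist2h3b, Hist2h3c1 or the transcript Gm20634, and both of those H3 genes had no count in any library. Hist1h3d had 12 to 27 counts in sIVs libraries and 12 to 23 in PBS libraries, with a log2 fold change of 0.11 ± 0.33 (edgeR adjusted p = 0.904) that was -0.24 without sIVs libraries 3 and 4.

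The H4 genes all encode the same or nearly the same protein, and 5 of 13 were tested. Hist1h4k, at 9.17 FPKM, had 2.21, 4.35, 4.03 and 1.55 CPM in the sIVs libraries, against 2.38, 2.89, 2.71 and 2.85 CPM in the PBS libraries. The sIVs libraries 3 and 4 were above, and sIVs libraries 2 and 5 below, every PBS library. Its log2 fold change was 0.17 ± 0.31 with all libraries (edgeR adjusted p = 0.830). Leaving out sIVs libraries 3 and 4 turned it to -0.53. Of its 150-base stretches 53.4% occur in other H4 genes.

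Hist1h4i, at 8.79 FPKM, had 6.56, 6.46, 6.79 and 4.59 CPM in the sIVs libraries, against 5.66, 6.22, 5.21 and 9.82 CPM in the PBS libraries. The groups overlapped, with sIVs library 5 lowest and PBS library 4 highest (log2 fold change -0.14 ± 0.23, edgeR adjusted p = 0.801, or -0.27 without sIVs libraries 3 and 4). Hist2h4 had 3.62, 3.98, 4.09 and 2.21 CPM in the sIVs libraries, against 4.18, 3.85, 4.86 and 6.12 CPM in the PBS libraries. Here sIVs library 5 was again lowest and PBS library 4 highest (log2 fold change -0.45 ± 0.24, edgeR adjusted p = 0.397, or -0.71 without sIVs libraries 3 and 4).

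Hist1h4h was the only tested histone gene with an unadjusted p under 0.05 that was higher in sIVs. It had 17, 10, 24 and 14 counts in sIVs libraries 2 to 5, against 10, 5, 2 and 6 counts in PBS libraries 1 to 4, or 0.980 ± 0.313 CPM in sIVs and 0.383 ± 0.211 CPM in PBS (SD, n = 4 each). Libraries 2, 4 and 5 of the sIVs group were above every PBS library. On the log2 scale the fold change was 1.33 ± 0.42 with an unadjusted p of 0.0103 and an adjusted p of 0.211 in edgeR. Its model ends 46 bases past the stem-loop printed above, 28.0% of its 150-base stretches occur in other H4 genes, and at these counts a few reads decide the ratio. Hist4h4, the only gene of its cluster, had 21, 4, 4 and 8 counts in the sIVs libraries, against 12, 14, 18 and 10 in the PBS libraries. In Hist4h4 the log2 fold change was -0.66 with all libraries, and 0.029 without sIVs libraries 3 and 4 (edgeR adjusted p = 0.593 and 0.989).

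The 47 genes that were not tested had 0 to 73 counts over all 8 libraries, and Hist1h2ad, with 73, lay just below the tested gene of fewest counts, Hist1h1a, with 74. The 11 genes without a count were Hist1h2ah, Hist1h2an, Hist1h2ap, Hist2h2aa1, Hist2h2aa2, Hist1h2ba, Hist2h2bb, Hist2h3b, Hist2h3c1, Hist1h4b and Hist1h4n. A count of 0 allows up to 3 counts in a library, for counting error only. In 8 of these 11 over 50% of the 150-base stretches also occur in another gene's transcript, and in Hist2h2aa2 and Hist2h3c1 all of them do. Among the 20 tested genes only Hist2h3c2 and Hist1h4k were over 50%, and 6 had none. How reads matching several genes were counted was not given in the sources used here, so these zeros do not show that the genes were silent.

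Summed over all 61 genes, core histones gave 233, 197, 215 and 173 CPM in sIVs libraries 2 to 5, against 224, 224, 240 and 268 CPM in PBS libraries 1 to 4. The means were 204.6 ± 25.6 CPM in sIVs and 238.9 ± 20.6 CPM in PBS (SD, n = 4 each), a ratio of 0.856. Library 2 of the sIVs group was within the PBS range and the other 3 were below it. Without sIVs libraries 3 and 4 the ratio was 0.851.

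The 6 linker genes summed to 47.1, 22.2, 26.1 and 26.9 CPM in the sIVs libraries, against 37.5, 36.0, 49.7 and 40.2 CPM in the PBS libraries. The means were 30.6 ± 11.2 CPM in sIVs and 40.9 ± 6.13 CPM in PBS, a ratio of 0.748, or 0.905 without sIVs libraries 3 and 4. Again sIVs library 2 lay within the PBS range and the other 3 lay below it. Since Hist1h1c supplied most of the linker counts, this sum largely repeats that gene.

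The linker share of all histone gene counts was 16.8%, 10.1%, 10.8% and 13.4% in the sIVs libraries, against 14.4%, 13.9%, 17.2% and 13.1% in the PBS libraries. Exact Clopper-Pearson 95% intervals, which cover counting error only, ran from 9.17% to 11.2% in sIVs library 3 and from 9.92% to 11.8% in sIVs library 4, below the intervals of the 4 PBS libraries, of which the lowest began at 12.1%. The share averaged 12.8 ± 3.01% in sIVs and 14.6 ± 1.78% in PBS, and the groups overlapped.

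**Figure D3:**
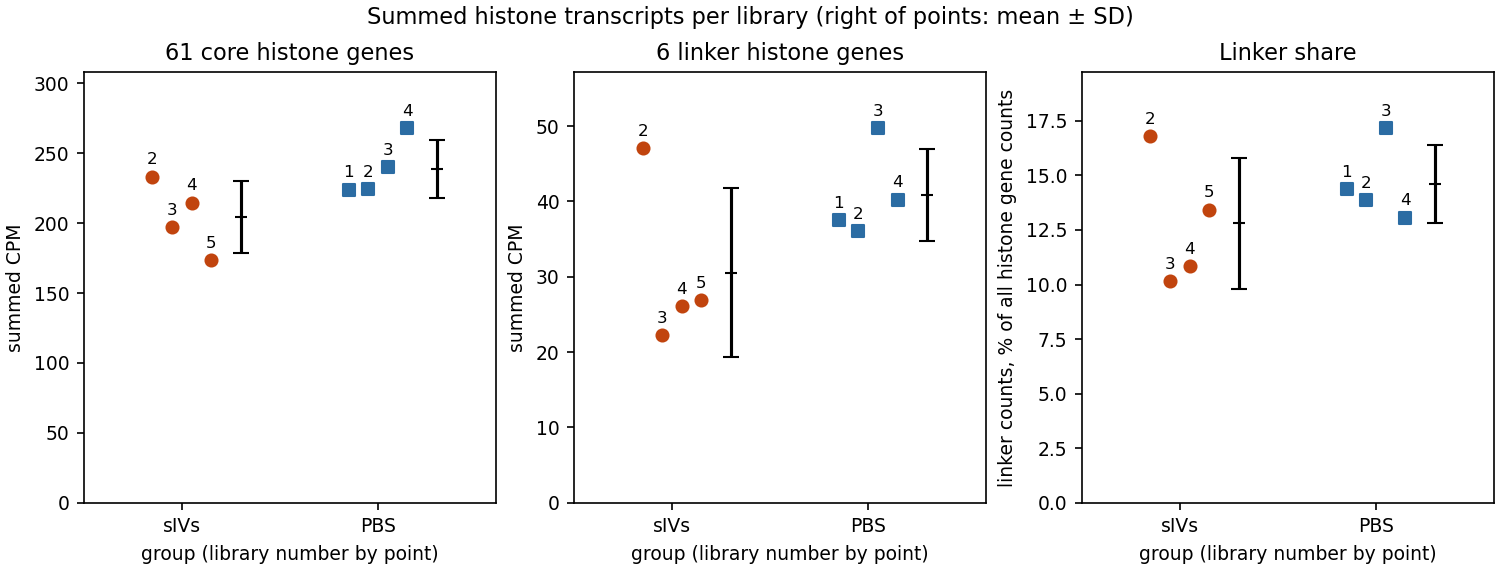
Summed CPM of the 61 core histone genes (left) and of the 6 linker histone genes (middle), and linker counts as a percent of all histone gene counts (right), for each sIVs and PBS library, with the library number at each point and the group mean ± SD beside the points. In both sums sIVs library 2 lies within the PBS range and the other 3 sIVs libraries lie below it.

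By type, summed FPKM averaged 142.5 ± 12.9 in sIVs and 162.3 ± 11.8 in PBS for H2B, and 21.2 ± 2.27 in sIVs and 23.8 ± 3.68 in PBS for H2A. It averaged 7.75 ± 1.75 in sIVs and 9.80 ± 1.18 in PBS for H3, and 24.6 ± 5.84 in sIVs and 23.6 ± 3.99 in PBS for H4 (SD, n = 4 each). For linker genes it averaged 19.3 ± 6.98 in sIVs and 25.9 ± 3.87 in PBS. In FPKM only H4 had the higher mean in sIVs, by less than the SD of either group. Its libraries had 23.3, 27.8, 30.2 and 16.9 FPKM in sIVs, against 20.5, 23.0, 21.5 and 29.4 FPKM in PBS, so that sIVs libraries 3 and 4 were high and sIVs library 5 was the lowest. Of these sums Hist1h4k, whose model has only 312 bases, gave 7.09, 13.9, 12.9 and 4.96 FPKM in the sIVs libraries. It gave 7.62 to 9.22 FPKM in the PBS libraries. FPKM divides by gene length, so counts of so short a model weigh more in FPKM than in CPM. In CPM the H4 mean was lower in sIVs, at 15.7 ± 3.07 CPM in sIVs and 16.9 ± 3.32 CPM in PBS. By cluster, the 54 Hist1 genes on chromosome 13 summed to 129.4 ± 29.0 CPM in sIVs and 164.9 ± 11.8 CPM in PBS. The 10 Hist2 genes on chromosome 3 summed to 29.7 ± 5.72 CPM in sIVs and 35.5 ± 4.98 CPM in PBS, and the 2 Hist3 genes on chromosome 11 to 75.4 ± 7.54 CPM in sIVs and 78.4 ± 7.51 CPM in PBS.

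The spread between libraries was not shared evenly. Library 5 of the sIVs group was the lowest of the 8 libraries for 13 of the 20 tested genes and the highest for none, and PBS library 4 was the highest for 10. How often each library was lowest or highest over all genes was not counted, so these ranks are not shown to be particular to histone genes. Over core genes, the median deviation from the PBS mean, in log2 units, was -0.0013, -0.18, -0.14 and -0.50 for sIVs libraries 2 to 5, against -0.14, -0.069, -0.0040 and 0.22 for PBS libraries 1 to 4. Over linker genes it was 0.23, -0.18, -0.61 and -0.49 in the sIVs libraries, against -0.13, -0.14, 0.31 and -0.052 in the PBS libraries. The core medians of sIVs libraries 3 and 5 were below that of every PBS library, furthest in library 5, and that of sIVs library 4 was level with the lowest PBS library.

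**Figure D4:**
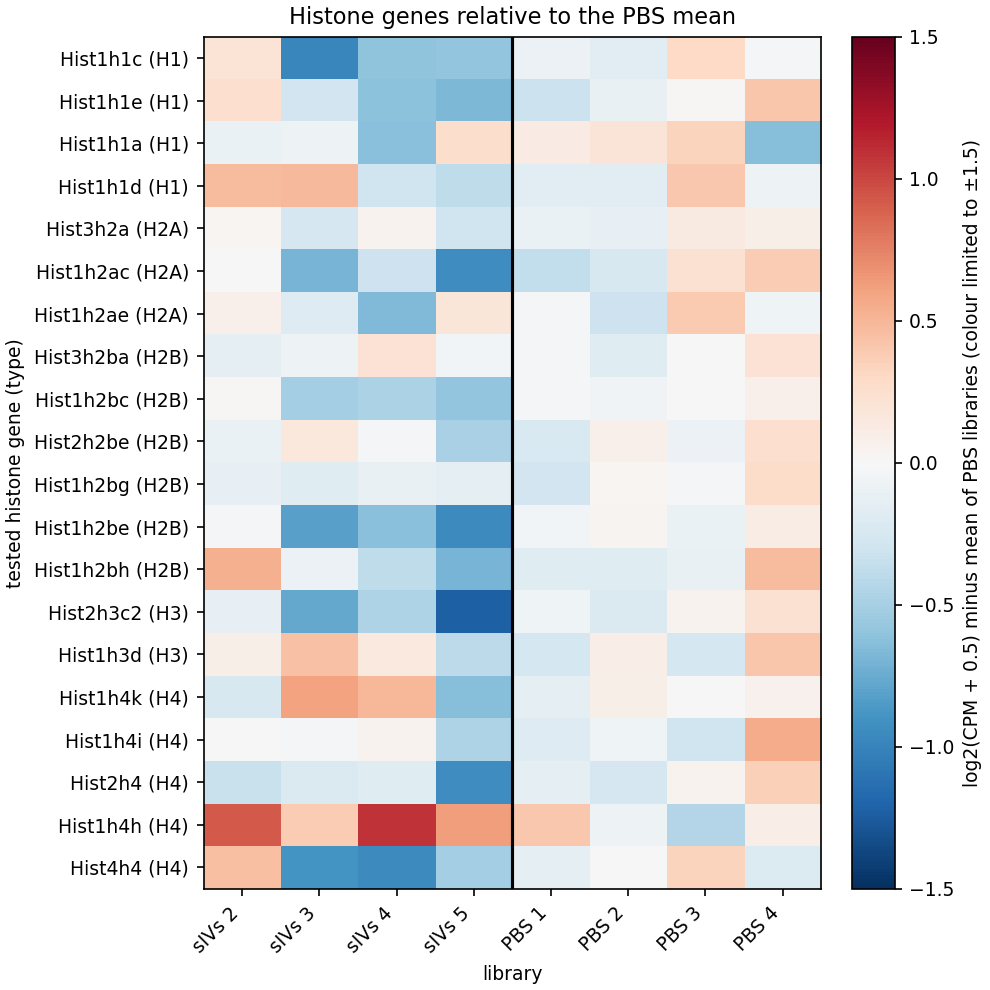
Colour gives log2(CPM + 0.5) minus the mean of the PBS libraries for each of the 20 tested histone genes (rows, by type) in each library (columns, sIVs left of the line and PBS right of it), with the colour limited to ±1.5. The column of sIVs library 5 is blue for most genes, and that of sIVs library 2 is pale for most. The row of Hist1h4h is above 0 in all 4 sIVs libraries and also in PBS libraries 1 and 4. PBS library 1, at 0.41, exceeds sIVs library 3, at 0.38.

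The markers of pigment epithelium, a tissue that can come away with the retina, also varied between libraries. Its 8 markers summed to 109, 59.4, 111 and 29.7 CPM in sIVs libraries 2 to 5, against 97.7, 55.0, 214 and 87.1 CPM in PBS libraries 1 to 4, lowest in sIVs library 5 and highest in PBS library 3. The 8 neutrophil markers, none of which passed the filter on low counts, summed to 0.536, 3.17, 1.66 and 4.24 CPM in the sIVs libraries, against 0.322, 0.321, 0.486 and 0.356 CPM in the PBS libraries, and Ly6g, a defining marker, had 1 count in all 8 libraries together. The 12 markers of inner retinal neurons summed to 1985, 2104, 2195 and 1785 CPM in the sIVs libraries, against 1993, 2032, 2162 and 2427 CPM in the PBS libraries. They too were lowest in sIVs library 5 and highest in PBS library 4. The 12 markers of Mueller glia and astrocytes summed to 5858, 7169, 7930 and 4829 CPM in the sIVs libraries, against 6710, 6263, 7401 and 7574 CPM in the PBS libraries, again lowest in sIVs library 5. Their median log2 deviation from the PBS mean was -0.032, 0.53, 0.56 and -0.38 for sIVs libraries 2 to 5. For PBS libraries 1 to 4 it was 0.043, -0.0048, 0.020 and -0.0041. The log2 fold change was positive in 8 of the 12, against 49% of all genes, and negative in 4, against 51%. The part of any of these in the histone values was not tested.

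Leaving out sIVs library 2 raised the number of called histone genes to 4 of the 22 then tested, all lower in sIVs, where 461 of all genes (2.56%) were called lower and 870 (4.83%) higher. They were Hist1h2bc (log2 fold change -0.53, edgeR adjusted p = 0.00644), Hist1h2be (-0.85, edgeR adjusted p = 0.0133), Hist1h1c (-0.74, edgeR adjusted p = 0.0196) and Hist2h3c2 (-0.86, edgeR adjusted p = 0.0490). Of the genes named from other lists below, Nelfe, Npm1, Uhrf1 and Rrm2 were then also called higher and Pou2f1 lower. No label gives a ground for leaving sIVs library 2 out. In each of the 4 histone genes sIVs library 2 was the sIVs library that lay within the PBS range. This was not particular to them. Over all genes its chi-square distance per gene was 3.65 to 12.6 from the PBS libraries. From the other sIVs libraries it was 13.9 to 74.5.

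Most genes of S phase and proliferation had positive fold changes. Of the 32 on that list 30 were tested, and 25 had a positive log2 fold change, against 49% of all genes, with a median of 0.32. None passed an adjusted p under 0.05 in edgeR. At an unadjusted p under 0.05 there were 13 higher in sIVs and 1 lower, where 9.61% and 5.63% of all genes were. Their median deviation from the PBS mean was 0.057, 0.46, 0.45 and 0.13 for sIVs libraries 2 to 5, against 0.052, 0.040, 0.052 and -0.12 for PBS libraries 1 to 4. The high values were in sIVs libraries 3 and 4, the libraries with low rod and high microglia markers. The 10 vascular markers were high there too, at 859 and 878 CPM. They summed to 519 and 484 CPM in sIVs libraries 2 and 5 and 527 to 605 CPM in the PBS libraries. The part of these cell types in the S phase values was not tested. Without sIVs libraries 3 and 4 the median of the S phase list was 0.068 and that of the core histone genes -0.27. Whether the lists differ was not tested.

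Mki67, a marker of cycling cells, had 1.14, 13.8, 12.9 and 1.13 CPM in the sIVs libraries, against 1.42, 1.92, 1.53 and 0.427 CPM in the PBS libraries (log2 fold change 2.44 ± 0.85, edgeR adjusted p = 0.248). Without sIVs libraries 3 and 4 its log2 fold change was -0.23. Rrm2, a subunit of ribonucleotide reductase, had 0.469, 3.23, 3.09 and 0.955 CPM in the sIVs libraries, against 0.773, 0.449, 0.139 and 0.285 CPM in the PBS libraries (edgeR adjusted p = 0.203). Uhrf1, which guides maintenance DNA methylation, had 1.87, 5.22, 6.35 and 1.25 CPM in the sIVs libraries, against 0.773, 0.834, 1.04 and 1.07 CPM in the PBS libraries. The sIVs libraries were all above the PBS libraries for Uhrf1, with a log2 fold change of 1.99 ± 0.51 and an edgeR adjusted p of 0.173. Of the 30 tested S phase genes 3 were separated upwards in this way and 0 downwards, against 4.42% and 3.36% of all genes.

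**Figure D5:**
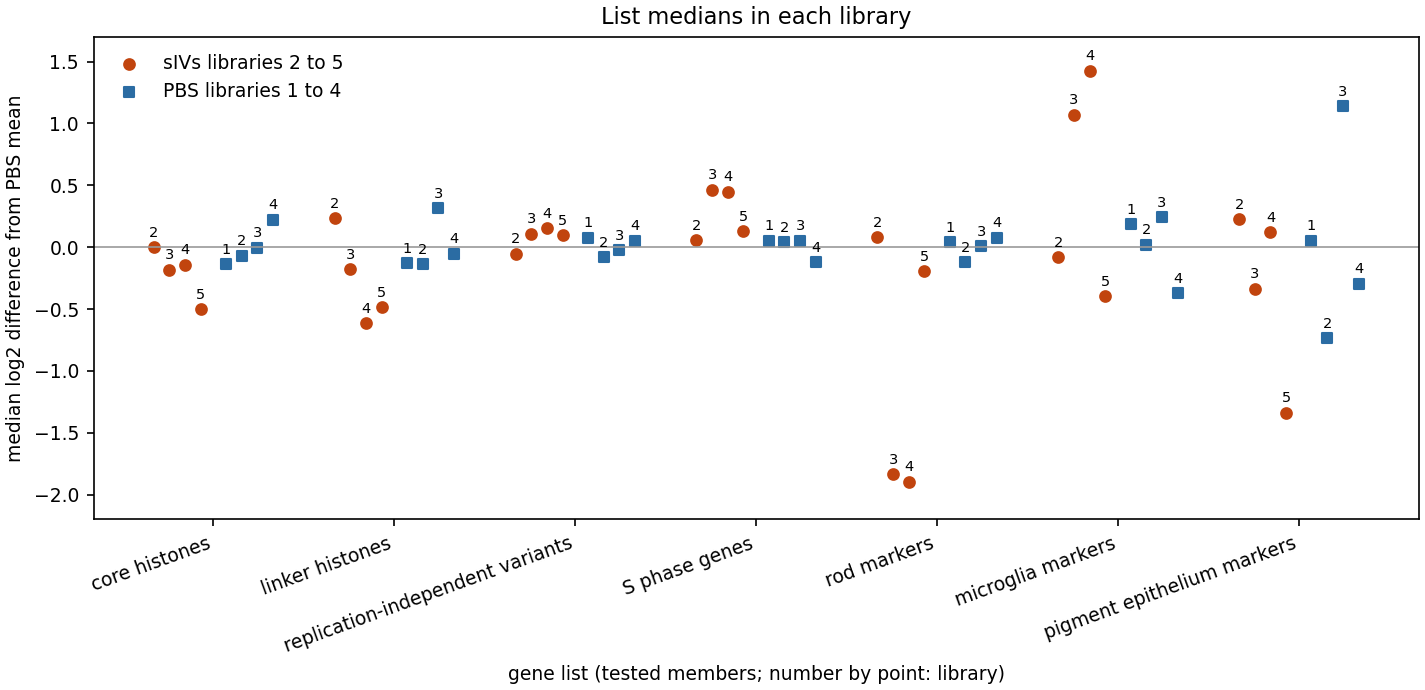
For 7 gene lists, the median over tested genes of log2(CPM + 0.5) minus the PBS mean, for each sIVs library (circles) and each PBS library (squares), with the library number at each point. Rod markers are at -1.83 and -1.90 and microglia markers at 1.07 and 1.43 in sIVs libraries 3 and 4, and the lowest core histone value is -0.50 in sIVs library 5.

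The replication-independent histone variants, whose genes give polyadenylated messages throughout the cell cycle, gave more FPKM than the clustered genes in these poly(A)-selected libraries. That selection is for transcripts with a tail, and reads of clustered genes that share sequence may be uncounted. The sums therefore do not rank total transcript levels. Summed over the 19 variants in the tables they had 484 ± 14.1 FPKM in sIVs and 460 ± 18.2 FPKM in PBS (SD, n = 4 each), against 215 ± 24.3 FPKM in sIVs and 245 ± 20.6 FPKM in PBS for the 67 clustered genes. None of the 13 tested variants passed the threshold in edgeR and none had an unadjusted p under 0.05. A positive log2 fold change was seen in 8, against 49% of all genes, and the median was 0.032. H2afj had 21.2, 31.6, 35.0 and 24.6 CPM in the sIVs libraries, against 26.8, 19.4, 21.9 and 22.3 CPM in the PBS libraries, highest in sIVs libraries 3 and 4 (edgeR adjusted p = 0.396). H2afv had 52.7, 37.6, 43.1 and 53.5 CPM in the sIVs libraries, against 56.2, 50.5, 53.2 and 59.6 CPM in the PBS libraries, lowest in the same pair (edgeR adjusted p = 0.377).

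Among 20 tested genes of histone transcription and histone mRNA processing, none passed the threshold in edgeR. Of these 20, 11 had a positive log2 fold change, against 49% of all genes, with a median of 0.015. At an unadjusted p under 0.05, 2 were higher and 1 lower in sIVs, where 9.61% and 5.63% of all genes were. Slbp, whose protein binds the stem-loop, had 21.5, 19.6, 22.4 and 27.3 CPM in the sIVs libraries, against 23.6, 25.8, 22.3 and 20.3 CPM in the PBS libraries, with overlapping groups and a log2 fold change of -0.019 ± 0.12 (edgeR adjusted p = 0.955). Pou2f1, a factor that binds the octamer found in some H2A and H2B promoters, had 78.1, 63.2, 58.7 and 62.3 CPM in the sIVs libraries, against 89.9, 92.5, 87.9 and 77.0 CPM in the PBS libraries. The groups met only in sIVs library 2 and PBS library 4, and the log2 fold change was -0.41 ± 0.10 (edgeR adjusted p = 0.168). Nelfe, a subunit of the negative elongation factor, had 15.4, 20.4, 19.4 and 22.5 CPM in the sIVs libraries, against 15.6, 14.4, 15.4 and 14.4 CPM in the PBS libraries (log2 fold change 0.38 ± 0.12, edgeR adjusted p = 0.218).

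All 13 genes of poly(A) tailing were tested, and 11 had a negative log2 fold change, against 51% of all genes, with a median of -0.076. None passed the threshold in edgeR and none had an unadjusted p under 0.05. Cpsf6, a subunit of cleavage factor I, was lower in every sIVs library than in any PBS library, at 176 to 206 CPM in sIVs and 207 to 224 CPM in PBS (log2 fold change -0.16 ± 0.071, edgeR adjusted p = 0.334). Of the 13 tailing genes 1 was separated downwards in this way and 0 upwards, against 3.36% and 4.42% of all genes. Pabpc1, which binds poly(A) tails in the cytoplasm, had 206 to 239 CPM in sIVs and 196 to 208 CPM in PBS (edgeR adjusted p = 0.360). Of 20 tested histone chaperones 12 had a positive log2 fold change, against 49% of all genes, with a median of 0.038, and none passed the threshold in edgeR. At an unadjusted p under 0.05, 3 were higher and 2 lower in sIVs, where 9.61% and 5.63% of all genes were. Nap1l1, a chaperone of H2A and H2B, was above every PBS library in each sIVs library, at 393 to 422 CPM in sIVs and 320 to 382 CPM in PBS (log2 fold change 0.21 ± 0.081, edgeR adjusted p = 0.273). Among the 20 chaperones 2 were separated upwards in this way and 1 downwards, against 4.42% and 3.36% of all genes. Uhrf1, Cpsf6 and Nap1l1 were each named for a small p in their list, a choice that favours such separation. Npm1 had 133 to 174 CPM in sIVs and 124 to 135 CPM in PBS (log2 fold change 0.29 ± 0.091, edgeR adjusted p = 0.208).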

How the data were processed

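RNA-seq of rd10 mouse retina was used, 4 sIVs and 4 PBS libraries, grouped and numbered by their titles. Per the labels' protocols, poly(A)-selected, strand-marked libraries were sequenced as 150-base read pairs. The submitters' processing notes name the mm10 build, which is GRCm38. The sources used here do not name the aligner, counter, annotation release or strand setting. The deposited counts are whole numbers per gene, not normalised. The deposited FPKM values equal the counts per gene length and library total times a constant of 0.930 to 1.03 per library, whose origin is not stated. All 67 genes had the coordinates of GENCODE M21.

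The count test was edgeR 4.0.16 under R 4.3.3: filterByExpr, which kept 17725 genes, TMM scaling, the quasi-likelihood test with group as the only term, and Benjamini-Hochberg adjustment over all genes tested, at 0.05. Standard errors come from the test's F statistic. CPM used TMM-adjusted totals. The 19 alternatives included DESeq2 1.42.0, limma-voom (limma 3.58.1), other scalings and filters, FPKM with pseudocounts of 0.1 and 1, blocks by replicate number, and left-out libraries. The tests were checked on simulated counts. Every pair of libraries differed by more than sampling noise. The gene models, stem-loops and shared 150-base stretches were read with Python 3.11.15 from GENCODE M21 transcripts, and promoters from RefSeq, each kept only within 300 bases of the gene and on its strand.

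The members and gene lists (histone variants, histone mRNA processing and transcription, poly(A) tailing, chaperones, S phase genes and cell type markers) were chosen with earlier results of these data known. Named were all linker genes, the 4 tested genes of highest FPKM per core type, the 5 of smallest unadjusted p, the genes of largest fold change without overlap (none qualified), the 2 of smallest p per list, Mki67 and Slbp. Hist1h2bh, Hist4h4, the genes without a count, Ly6g and Hist1h2ad were named after their values were seen.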

Additional observations from a re-analysis of the deposited data

Results flagged for a closer look

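Among 64 sets of 4 values examined, 3 histone gene values stood apart from the other 3 libraries of their group by more than Dixon's 95% critical value of 0.829 (the gap to the nearest library over the whole range), where chance flags about 1 in 20 sets. Hist1h2bc had 87.8 CPM in sIVs library 2, while the other sIVs libraries had 57.2 to 62.3 CPM. Hist1h4i had 4.59 CPM in sIVs library 5, while the other sIVs libraries had 6.46 to 6.79 CPM. Hist1h1d had 1.39 CPM in PBS library 3, while the other PBS libraries had 0.770 to 0.854 CPM, a difference of a few counts.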

How the results depend on the processing

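Under the 19 alternatives no histone gene was called, except without sIVs library 2, where 4 were called lower, so leaving out 1 library at a time gave 0 to 4 called lower and 0 called higher. The cause was not tested. Over all genes, none was called with every library in edgeR, and calls higher and lower in sIVs numbered 465 and 106 with DESeq2, 145 and 7 without the filter on low counts, 870 and 461 without sIVs library 2, and 2 and 1 without sIVs libraries 3 and 4. The core median stayed negative under every alternative run, from -0.30 to -0.087 over left-out libraries, and so did the linker median, from -0.48 to -0.14 over left-out libraries, though it was only -0.038 without sIVs libraries 3 and 4. Of 338 fold changes of named histone genes under an alternative, 314 kept their direction and side of the threshold, 20 changed sign and 4 passed the threshold only there. Over single left-out libraries the log2 fold change of Hist1h1d ran from -0.071 to 0.39, Hist1h2ae from -0.40 to 0.019, Hist3h2ba from -0.088 to 0.069, Hist2h2be from -0.21 to 0.0022, Hist1h3d from -0.085 to 0.33, Hist1h4k from -0.052 to 0.39, Hist1h4i from -0.24 to 0.097 and Slbp from -0.12 to 0.044. Without sIVs libraries 3 and 4 the sign changed for Hist1h1a (0.079), Hist1h2ae (0.16), Hist1h3d (-0.24), Hist1h4k (-0.53), Slbp (0.083) and Mki67 (-0.23), and, among tested histone genes outside the naming rule, for Hist1h2bh (0.010) and Hist4h4 (0.029). Scaling by library totals, which moved the median of all genes to 0.071, gave 0.073 for Hist3h2ba and 0.052 for Slbp. The replicate numbers did not pair the libraries: deviations of same-numbered libraries correlated at -0.0061, 0.055 and -0.060 by title and at -0.075, 0.041, 0.098 and 0.070 by biosample number. A replicate block called 0 histone genes in either numbering, with a core median of -0.30 by title, where sIVs library 5 and PBS library 1 drop out, and -0.19 by biosample number, and linker medians of -0.39 and -0.34. Low counts limit Hist1h4h, Hist4h4, Hist1h1a and Hist1h1d, and shared sequence limits Hist2h3c2 and Hist1h4k.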
